A study of Mus musculus with 22 samples.

Results

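The genes described here are 9 liver enzymes of nitrogen metabolism, taken by name: the 5 enzymes of the urea cycle (Cps1, Otc, Ass1, Asl and Arg1) and 4 enzymes that break down amino acids (Hpd, Tat, Hal and Sds). They are 9 of the 24786 genes listed, and all 9 were among the 12231 genes that reached 1 RPKM (read numbers divided by gene length and by the library's mapped reads) in at least 2 of the 6 liver libraries. The libraries came from whole liver of C57BL/6 mice, aged 2 to 4 weeks per the labels, in 3 groups of 2. The first group were TG Aire-/- livers from mice depleted of CD8+ T cells, the second TG Aire-/- livers without treatment, and the last untreated Aire+/+ livers, which lack the transgene. The series title gives the model as dnTGFβRII Aire-/-, that is, a dominant-negative type II TGF-β receptor, which in mice of this name is expressed in T cells (the promoter is not given in the labels), together with loss of Aire, the regulator of tissue-restricted genes in the thymus. The CD8-depleted livers carried both alterations, as the TG Aire-/- livers did. Whether both libraries of a group came from different mice is not stated in the labels. In TG Aire-/- and in Aire+/+ livers, replicate 1 was male and replicate 2 female, judged from Y-linked genes and Xist. Those pairs were therefore from different mice. Both CD8-depleted libraries were male, so the sex call cannot decide this for them. The p-values measure the spread between these libraries, part of which may be technical. The comparison of TG Aire-/- with Aire+/+ livers asks what differs in the diseased liver, and that of CD8-depleted with TG Aire-/- livers asks what differs once CD8+ T cells have been removed.

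The urea cycle turns ammonia, released when amino acids are broken down, into urea for excretion, and its complete set of enzymes works in the hepatocytes of the liver. Carbamoyl phosphate synthetase 1 and ornithine transcarbamylase act in mitochondria, and the remaining steps take place in the cytosol. These enzymes, and several that degrade amino acids, are most abundant in hepatocytes near the portal vein, while glutamine synthetase captures leftover ammonia in cells around the central vein. Several of the genes are induced by glucagon and glucocorticoids, as in fasting or on a protein-rich diet.

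The markers matched the tissue label: the summed RPKM of 10 general hepatocyte genes (Alb, Apoa1 and others) was 52282 to 74330 in CD8-depleted livers, 37574 to 56941 in TG Aire-/- livers and 80674 to 82149 in Aire+/+ livers. Other cells differed too: 12 macrophage markers summed to 267 to 836, 1816 to 2008 and 276 to 318 RPKM in those 3 groups, and 8 erythroid markers to 485 to 1092, 17506 to 30615 and 2032 to 2338 RPKM. The 9 T cell markers listed summed to 5.63 to 10.99, 34.7 to 58.3 and 2.41 to 2.74 RPKM. Cd8a was listed at 0 and 0.187 RPKM in CD8-depleted livers, 8.76 and 3.75 RPKM in TG Aire-/- livers and 0.161 and 0.220 RPKM in Aire+/+ livers. Xist and Y-linked genes showed 2 male CD8-depleted livers, and a male replicate 1 and a female replicate 2 in each of the other groups. Depth inferred from the spacing of low values was 20080000 to 22840000 reads per library, a rough figure, since single reads were not recovered. On that figure the 9 genes stood on about 490 to 139799 reads each, so counting error was likely small beside the spread between libraries.

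Otc and Hpd fell in TG Aire-/- livers relative to Aire+/+ livers, with mean levels 0.204 and 0.140 times those of Aire+/+ livers. Both rose in CD8-depleted relative to TG Aire-/- livers, to mean levels 3.20 and 4.76 times as high, and Hal rose as well, to 8.44 times. These rises depended on single libraries, as given below. The Hal mean in CD8-depleted livers came from 177 and 27.3 RPKM. Over the 9 genes the median log2 difference of this comparison was 1.94, and 0.77 without CD8-depleted replicate 1. The other genes passed no test in these comparisons, and no gene of the 9 passed between CD8-depleted and Aire+/+ livers. Arg1 had a mean in TG Aire-/- livers 1.04 times that in Aire+/+ livers. In bulk liver, fewer hepatocytes and less of an RNA per hepatocyte cannot be told apart.

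**Figure D1:**
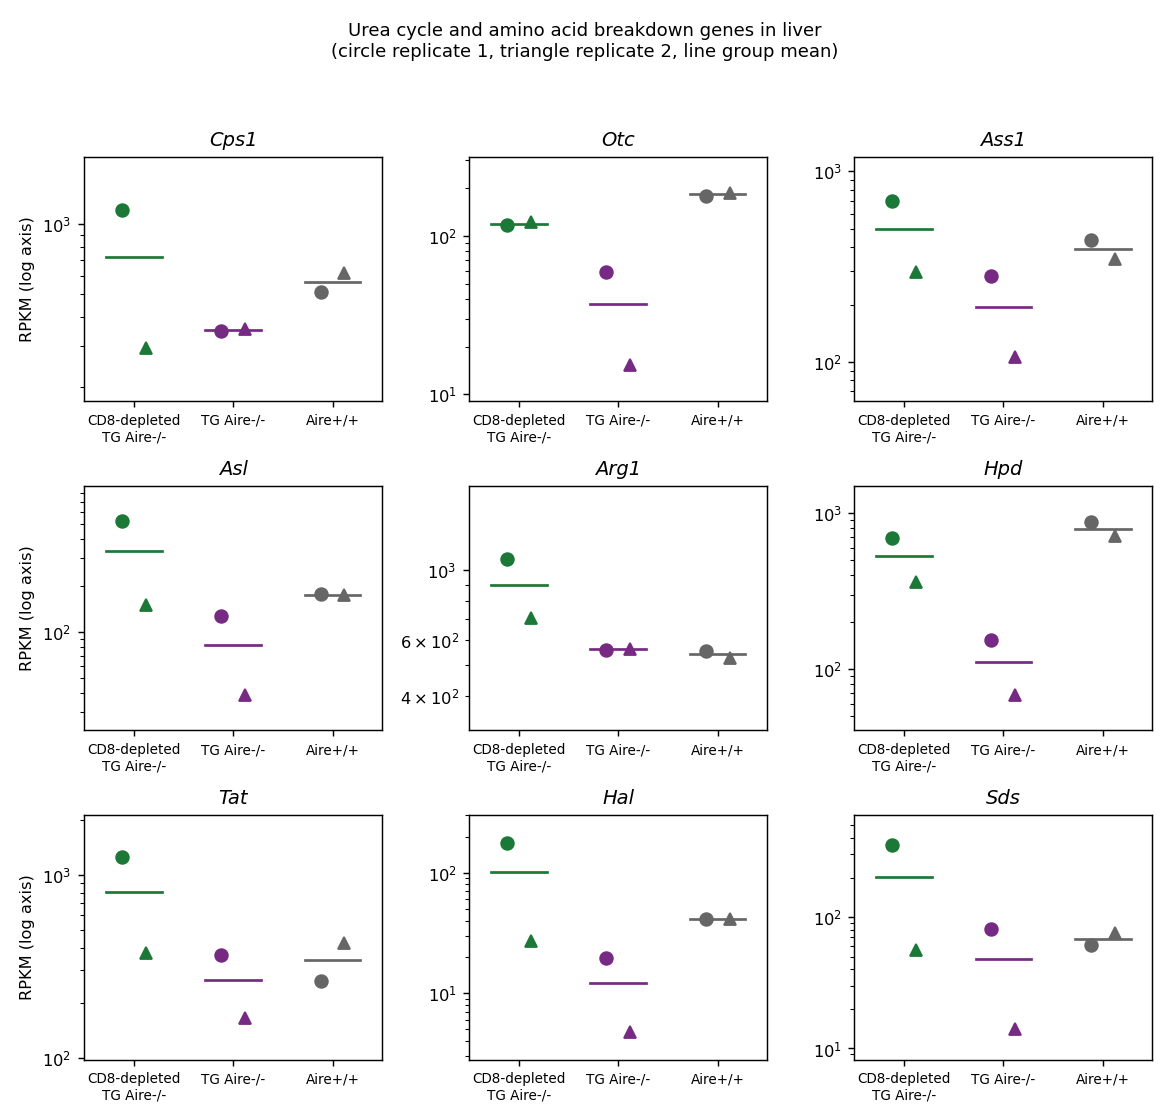
RPKM of the 9 genes (log axis, 1 panel a gene) in CD8-depleted TG Aire-/-, TG Aire-/- and Aire+/+ livers, with a circle for replicate 1, a triangle for replicate 2 and a line at the group mean. The Otc and Hpd points of TG Aire-/- livers lie below those of both other groups, and replicate 1 of the CD8-depleted livers lies above replicate 2 for every gene but Otc.

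Values are given as replicate 1 and replicate 2 of each group, and differences as limma estimates on log2(RPKM + 1) with standard error and p-values adjusted by Benjamini-Hochberg over all genes tested. Cps1 (GRCm38 chromosome 1, 67123026 to 67231259) makes carbamoyl phosphate from ammonia and bicarbonate, the entry step of the cycle. It had 1148 and 295 RPKM in CD8-depleted livers, 349 and 353 RPKM in TG Aire-/- livers, and 513 and 618 RPKM in Aire+/+ livers. Both TG Aire-/- libraries were below both Aire+/+ libraries, while the CD8-depleted pair lay on either side of all the others. The log2 difference of TG Aire-/- from Aire+/+ livers was -0.68 (SE 0.604, adjusted p = 0.392), and that of CD8-depleted from TG Aire-/- livers was 0.73 (SE 0.604, adjusted p = 0.360).

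Otc (chromosome X, 10252305 to 10321024) joins carbamoyl phosphate to ornithine to make citrulline. It had 117 and 122 RPKM in CD8-depleted livers, 59.2 and 15.4 RPKM in TG Aire-/- livers, and 179 and 186 RPKM in Aire+/+ livers. The 3 groups did not overlap, with CD8-depleted livers between the others. Otc fell by 2.55 on the log2 scale in TG Aire-/- relative to Aire+/+ livers (SE 0.552, limma adjusted p = 0.0120). It rose by 1.94 in CD8-depleted relative to TG Aire-/- livers (SE 0.552, limma adjusted p = 0.0295). Between CD8-depleted and Aire+/+ livers the log2 difference was -0.61, with a 95% interval of -1.90 to 0.68, so a deficit of several-fold and a small excess were both within it. The fall was past the threshold in 16 of 17 alternative settings and was missed, at an adjusted p of 0.0504, only without Aire+/+ replicate 2. The rise passed in 12 of 17 and was missed without CD8-depleted replicate 1 (adjusted p = 0.102) and without TG Aire-/- replicate 2 (adjusted p = 0.0822), among others.

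Ass1 (chromosome 2, 31470207 to 31520672) condenses citrulline with aspartate. Its reads could not be told apart from those of Gm5424, a processed pseudogene copied from its messenger RNA on chromosome 10 (62071123 to 62072362, plus strand). Over the 1240 bases of the copy the GENCODE transcripts differ at 6, and a stretch of 120 bases with 2 of these differences is shown, the differing bases in capitals.
Ass1: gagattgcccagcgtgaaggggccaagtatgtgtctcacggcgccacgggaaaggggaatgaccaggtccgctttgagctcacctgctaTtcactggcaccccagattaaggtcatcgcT
Gm5424: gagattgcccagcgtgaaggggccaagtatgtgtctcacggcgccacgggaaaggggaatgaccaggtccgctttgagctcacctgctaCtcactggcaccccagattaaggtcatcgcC
Gm5424 was listed at 1.05 times the Ass1 value in each of the 6 libraries, so the pair carried a single measurement. Ass1 had 703 and 295 RPKM in CD8-depleted livers, 281 and 106 RPKM in TG Aire-/- livers, and 434 and 348 RPKM in Aire+/+ livers. Both TG Aire-/- libraries were lower than all the others. The log2 differences were -1.17 for TG Aire-/- minus Aire+/+ livers (SE 0.579, adjusted p = 0.144) and 1.40 for CD8-depleted minus TG Aire-/- livers (SE 0.579, adjusted p = 0.0920).

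Asl (chromosome 5, 130011258 to 130029247) splits argininosuccinate into arginine and fumarate. It had 521 and 149 RPKM in CD8-depleted livers, 127 and 38.9 RPKM in TG Aire-/- livers, and 175 and 173 RPKM in Aire+/+ livers. TG Aire-/- livers were again lowest, and the CD8-depleted pair spanned the Aire+/+ pair. The log2 difference was -1.30 for TG Aire-/- minus Aire+/+ livers (SE 0.694, adjusted p = 0.172). It was 1.97 for CD8-depleted minus TG Aire-/- livers (SE 0.694, adjusted p = 0.0581), just outside the threshold of 0.05.

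Arg1 (chromosome 10, 24915221 to 24927484) releases urea from arginine and closes the cycle. It is also made by alternatively activated macrophages and other myeloid cells. It had 1086 and 705 RPKM in CD8-depleted livers, 560.2 and 564 RPKM in TG Aire-/- livers, and 557 and 529 RPKM in Aire+/+ livers. The TG Aire-/- and Aire+/+ libraries lay close together and the CD8-depleted libraries were above them. The log2 difference of TG Aire-/- from Aire+/+ livers was 0.05, with a 95% interval of -0.82 to 0.92. Its direction depended on the scaling of the libraries, being -0.45 with median-ratio factors. CD8-depleted livers differed by 0.64 from TG Aire-/- livers (SE 0.373, adjusted p = 0.206) and by 0.69 from Aire+/+ livers (SE 0.373, adjusted p = 0.573). Of 6 genes listed for arginine or ornithine use or as markers of alternatively activated macrophages, 3 passed the filter. These (Odc1, which uses ornithine, and Chil3 and Mrc1, listed as markers) rose in TG Aire-/- relative to Aire+/+ livers. In that comparison 31.8% of all genes tested were called higher. So were 11 of 12 macrophage, 7 of 7 neutrophil and 7 of 8 endothelial genes tested. Which cells carried Chil3 and Mrc1 was not tested. The markers Retnla and Mgl2 stayed under 1 RPKM in every library, at 0.102 and 0.139 RPKM and at 0 and 0.0316 RPKM in TG Aire-/- livers, against 0.166 and 0.00872 RPKM and 0.0299 and 0.0959 RPKM in Aire+/+ livers. Nos2, the competing user of arginine, reached 1 RPKM in a single library and was not tested. It had 0 and 0.146 RPKM in CD8-depleted livers, 0.707 and 5.66 RPKM in TG Aire-/- livers, and 0 and 0.0115 RPKM in Aire+/+ livers, so both TG Aire-/- libraries were above all the others. The share of Arg1 reads from macrophages was not tested.

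Hpd (chromosome 5, 123171807 to 123182727) converts the keto acid of tyrosine to homogentisate. It had 699 and 365 RPKM in CD8-depleted livers, 155 and 68.9 RPKM in TG Aire-/- livers, and 881 and 714 RPKM in Aire+/+ livers. The groups did not overlap, with TG Aire-/- livers lowest and CD8-depleted livers between the others, replicate 1 close to the lower Aire+/+ library and replicate 2 well under it. The mean of CD8-depleted livers was 0.667 times that of Aire+/+ livers. Hpd fell by 2.93 on the log2 scale in TG Aire-/- relative to Aire+/+ livers (SE 0.498, limma adjusted p = 0.00548) and passed in all 17 alternative settings, with adjusted p between 0.00121 and 0.0440. It rose by 2.28 in CD8-depleted relative to TG Aire-/- livers (SE 0.498, limma adjusted p = 0.0126). That rise was missed in 2 of the 17, without CD8-depleted replicate 1 (adjusted p = 0.0590) and without TG Aire-/- replicate 2 (adjusted p = 0.0780). CD8-depleted livers differed from Aire+/+ livers by -0.65, with a 95% interval of -1.81 to 0.51.

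Tat (chromosome 8, 109990437 to 109999803) starts tyrosine breakdown by removing its amino group, a step upstream of Hpd. It had 1246 and 375 RPKM in CD8-depleted livers, 365 and 166 RPKM in TG Aire-/- livers, and 263 and 423 RPKM in Aire+/+ livers. TG Aire-/- and Aire+/+ livers overlapped. The log2 differences were -0.44 for TG Aire-/- minus Aire+/+ livers (SE 0.643, adjusted p = 0.608) and 1.47 for CD8-depleted minus TG Aire-/- livers (SE 0.643, adjusted p = 0.106).

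Hal (chromosome 10, 93488768 to 93519304) removes ammonia from histidine. It had 177 and 27.3 RPKM in CD8-depleted livers, 19.5 and 4.75 RPKM in TG Aire-/- livers, and 41.3 and 41.0 RPKM in Aire+/+ livers. TG Aire-/- livers were lowest, and the CD8-depleted libraries lay far above and somewhat below the Aire+/+ pair. Hal rose by 2.71 on the log2 scale in CD8-depleted relative to TG Aire-/- livers (SE 0.868, limma adjusted p = 0.0434). The estimate was 1.38 without CD8-depleted replicate 1 (adjusted p = 0.195) and 1.79 without TG Aire-/- replicate 2 (adjusted p = 0.262). TG Aire-/- minus Aire+/+ livers gave -1.96 (SE 0.868, adjusted p = 0.111), and 5 of 17 alternative settings brought that below the threshold.

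Sds (chromosome 5, 120476526 to 120483932) deaminates serine and threonine. It had 351 and 56.1 RPKM in CD8-depleted livers, 81.3 and 14.0 RPKM in TG Aire-/- livers, and 61.3 and 75.1 RPKM in Aire+/+ livers. Each altered group had a library above and a library below the Aire+/+ pair. Its log2 differences had the largest standard error of the 9 genes, 0.969, and were -0.97 for TG Aire-/- minus Aire+/+ livers (adjusted p = 0.445) and 2.01 for CD8-depleted minus TG Aire-/- livers (adjusted p = 0.134). Sds overlaps Plbd2 on the opposite strand, and Hpd overlaps Psmd9 in the same way. Whether reads were counted by strand is not given in the sources used here. Psmd9 reached at most 13.05 RPKM, far below Hpd, but Plbd2, at 24.1 RPKM, exceeded Sds in TG Aire-/- replicate 2.

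**Figure D2:**
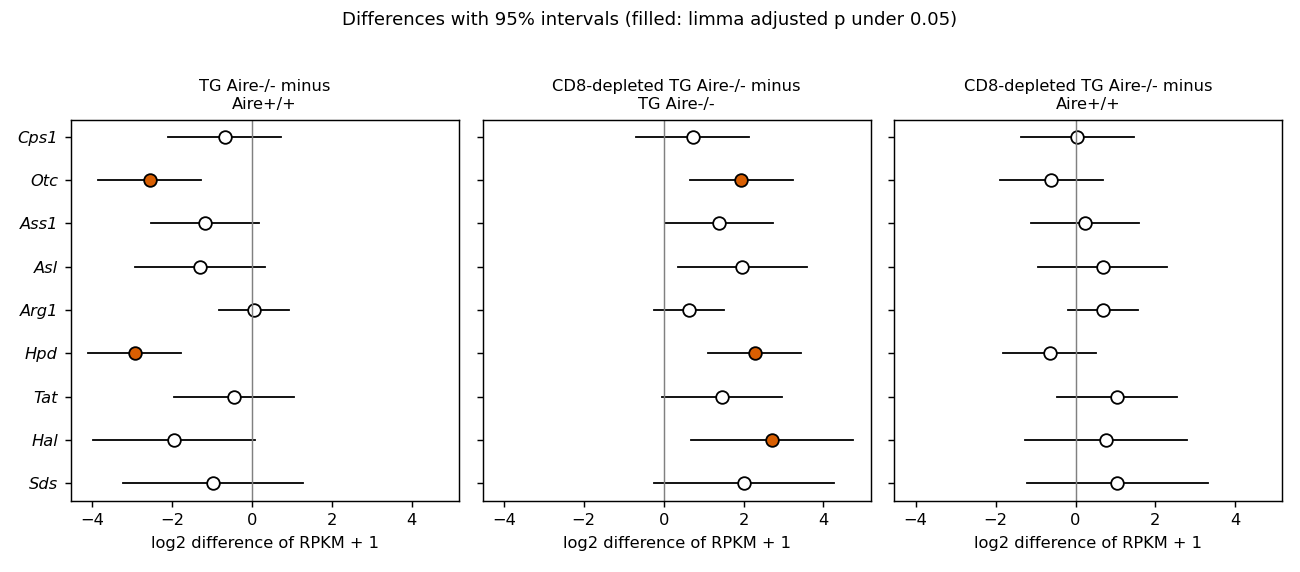
Estimated log2 differences of RPKM + 1 with 95% intervals for the 9 genes in the 3 comparisons, filled where the limma adjusted p was under 0.05. Otc and Hpd are filled at the left, Otc, Hpd and Hal in the middle, and none at the right, where every interval spans 0.

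Counted over the 9 genes, 2 fell and 0 rose in TG Aire-/- relative to Aire+/+ livers, where 5.5% of all genes tested were called lower, 31.8% higher and 37.3% in either direction. Of the 9 estimates 8 were below 0, and the median of the 9 was -1.17, against 0.53 for all genes tested. In CD8-depleted relative to TG Aire-/- livers 3 rose and 0 fell, where 4.49% of all genes were called higher, 33.5% lower and 38% in either direction. All 9 estimates were above 0, with a median of 1.94 against -0.58 for all genes. These comparisons share the TG Aire-/- libraries, so their opposite signs are not separate observations. Without CD8-depleted replicate 1 the median of the 9 was 0.77, against -0.50 for all genes, and without TG Aire-/- replicate 2 it was 0.90, against -0.44. It was 2.34 without CD8-depleted replicate 2, against -0.68, and 2.81 without TG Aire-/- replicate 1, against -0.61. The 3 rises were lost without CD8-depleted replicate 1 and without TG Aire-/- replicate 2, where fewer of all genes were called higher too. Between CD8-depleted and Aire+/+ livers limma called 0 of the 9, of which 0 had an unadjusted p under 0.05, where 0.221% of all genes were called higher, 0.327% lower and 0.548% in either direction. The estimates ran there from -0.65 for Hpd to 1.04 for Sds, with 7 above 0 and a median of 0.68 against -0.04. Hal, Sds, Cps1, Asl and Ass1 had estimates below 0 in this comparison without CD8-depleted replicate 1, of -0.57, -0.27, -0.93, -0.23 and -0.40.

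The order of the 9 levels differed between groups. Hpd had the highest RPKM of the 9 in both Aire+/+ livers, with 28.4% and 23.0% of their sum, but it was the fifth in both TG Aire-/- livers, with 7.75% and 5.18%. Arg1 stood first in both TG Aire-/- livers, with 28.1% and 42.4% of the sum, and lower in the order in Aire+/+ livers, with 17.9% and 17.0%. In CD8-depleted livers Tat led replicate 1 and Arg1 led replicate 2. Hal and Sds were the lowest pair in both Aire+/+ livers. Among the 5 urea cycle genes alone, Arg1 made up 30.4% and 45.0% of the RPKM in CD8-depleted livers, 40.7% and 52.4% in TG Aire-/- livers, and 29.96% and 28.5% in Aire+/+ livers. Otc made up 3.26% and 7.80%, 4.30% and 1.43%, and 9.65% and 10.0% in the same groups. The ratio of Arg1 to Otc levels was thus 9.31 and 5.77 in CD8-depleted livers, 9.47 and 36.6 in TG Aire-/- livers, and 3.10 and 2.84 in Aire+/+ livers. Both altered groups lay above the Aire+/+ pair in this ratio. The ratio of Tat to Hpd, successive enzymes of tyrosine breakdown, was 1.78 and 1.03, 2.36 and 2.41, and 0.299 and 0.592 in the same groups, which did not overlap. Together the 9 genes held 1.68% and 0.615% of all RPKM in CD8-depleted livers, 0.484% and 0.364% in TG Aire-/- livers, and 0.774% and 0.830% in Aire+/+ livers.

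Set against general hepatocyte genes of the same library, the 9 genes differed in direction. The median log2(RPKM + 1) of the 10 hepatocyte genes was 10.92 and 11.13 in CD8-depleted livers, 10.60 and 9.65 in TG Aire-/- livers, and 11.63 and 11.40 in Aire+/+ livers. Hpd and Otc were low even relative to that median, by -1.53 and -1.15 on the log2 scale in TG Aire-/- compared with Aire+/+ livers. Arg1 and Tat were high relative to it, by 1.45 and 0.96, and Cps1 by 0.72 on average, with overlapping groups. The values of Sds, Ass1, Asl and Hal were 0.42, 0.23, 0.10 and -0.56. With the libraries rescaled to those 10 genes, which moved the median difference of all genes from 0.53 to 1.64, limma still called Otc and Hpd lower in TG Aire-/- than in Aire+/+ livers, at -1.19 (adjusted p = 0.0218) and -1.54 (adjusted p = 0.00430). Arg1 was then called higher, at 1.44 (adjusted p = 0.00766). In CD8-depleted relative to TG Aire-/- livers limma called Otc, Hpd and Hal higher under the same scaling, at 1.07 (adjusted p = 0.0462), 1.39 (adjusted p = 0.0121) and 1.90 (adjusted p = 0.00811). Among the 10 hepatocyte genes 3 themselves fell in TG Aire-/- livers, so this scaling rests on genes that also moved.

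**Figure D3:**
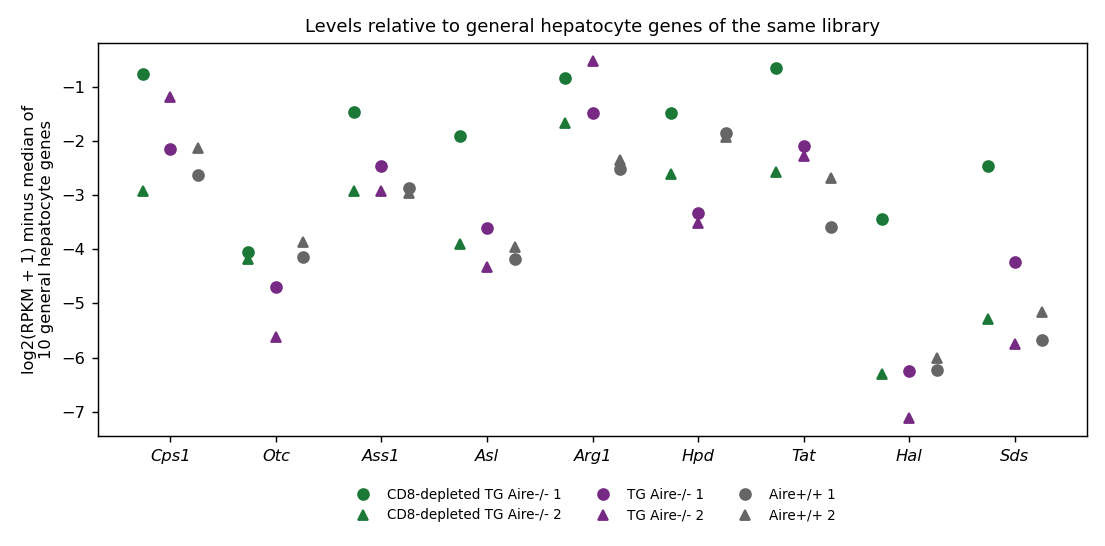
Level of each of the 9 genes relative to general hepatocyte genes, as log2(RPKM + 1) minus the median of 10 such genes in the same library, for CD8-depleted TG Aire-/-, TG Aire-/- and Aire+/+ livers (circle replicate 1, triangle replicate 2). TG Aire-/- points lie below both other groups for Otc and Hpd and above both Aire+/+ points for Arg1 and Tat, while for Cps1 the TG Aire-/- and Aire+/+ points overlap.

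The 9 genes varied between the replicates of the altered mice. The Aire+/+ pair was close, with 0 of the 9 genes differing by 1 or more on the log2 scale, as did 0.491% of all genes tested. In CD8-depleted livers 8 of the 9 were higher in replicate 1, 6 of them by 1 or more, with a median over the 9 of 1.73, while 2.03% of all genes were that much higher in replicate 1 and 8.44% in replicate 2. Hal and Sds differed most, at 2.65 and 2.63, and Otc was the exception, at -0.06. In TG Aire-/- livers 7 of the 9 were higher in replicate 1 by 1 or more, with a median over the 9 of 1.40, where 3.55% of all genes were that much higher in replicate 1. Cps1 and Arg1 were the exceptions, at -0.02 and -0.01. These 2 TG Aire-/- libraries also differed by sex, as did the Aire+/+ pair. Of the hepatocyte genes, 9 of 10 were higher in TG Aire-/- replicate 1, by a median of 0.71. The 2 CD8-depleted libraries were of the same sex. Their hepatocyte genes differed in both directions, from -0.78 for Trf to 1.02 for Alb, with 7 of 10 higher in replicate 1 and a median of 0.11, and all 12 macrophage markers and all 7 neutrophil markers tested were lower in replicate 1, by medians of -1.39 and -1.66. Replicate 1 was also high in Got1, the cytosolic aspartate aminotransferase, at 514 RPKM against 80.3 RPKM in replicate 2. The same held for G6pc, which releases free glucose, at 514 RPKM against 22.9 RPKM, and for Pck1, the control point of gluconeogenesis, at 1395 RPKM against 713 RPKM. All 5 genes listed for gluconeogenesis were higher in replicate 1, by a median of 0.94, but only 1 by 1 or more. Fbp1 among them differed by 0.07. The part of these differences in the results on the 9 genes was not tested.

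**Figure D4:**
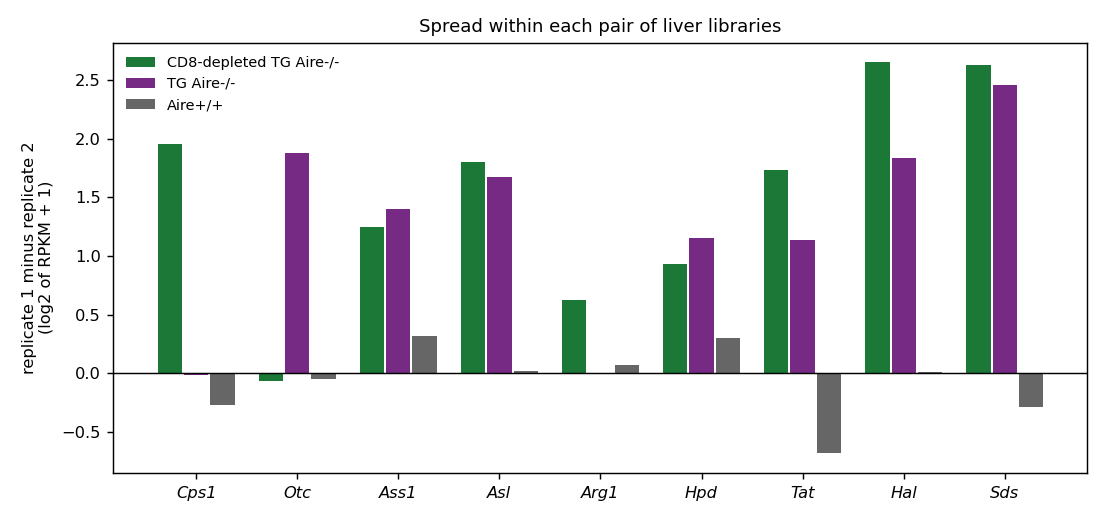
Difference between the 2 replicates of each group, as replicate 1 minus replicate 2 on log2(RPKM + 1), for the 9 genes. Bars of CD8-depleted livers reach 2.65 for Hal and are near 0 for Otc, bars of TG Aire-/- livers reach 2.46 for Sds and are near 0 for Cps1 and Arg1, and bars of Aire+/+ livers lie between -0.68 and 0.32.

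Around the 9 genes, 83 others of amino acid and ammonia metabolism, in 9 lists, changed widely in TG Aire-/- livers. Of these, 51 fell and 3 rose relative to Aire+/+ livers, with a median log2 difference of -1.23. Over all genes tested, 5.5% were called lower and 31.8% higher there, with a median of 0.53. In CD8-depleted relative to TG Aire-/- livers 38 rose and 2 fell, with a median of 1.02. Over all genes tested, 4.49% were called higher and 33.5% lower there, with a median of -0.58. Between CD8-depleted and Aire+/+ livers limma called 0 of the 83, of which 13 had an unadjusted p under 0.05, as had 1327 of the 12231 genes tested, and 54 of 83 estimates were below 0, with a median of -0.24. The counts depended on single libraries. Fewer of the 83 fell without TG Aire-/- replicate 2, Aire+/+ replicate 1 or Aire+/+ replicate 2. In those fits fewer of all genes tested were called lower too. Fewer of the 83 rose in CD8-depleted livers without CD8-depleted replicate 1, TG Aire-/- replicate 2, Aire+/+ replicate 1 or Aire+/+ replicate 2. There, fewer of all genes tested were called higher too. Under the scaling to hepatocyte genes 8 of the 83 fell and 11 rose in TG Aire-/- livers, with a median of 0.12. Of the 12231 genes tested, 139 were then called lower and 9133 higher, with a median of 1.64.

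**Figure D5:**
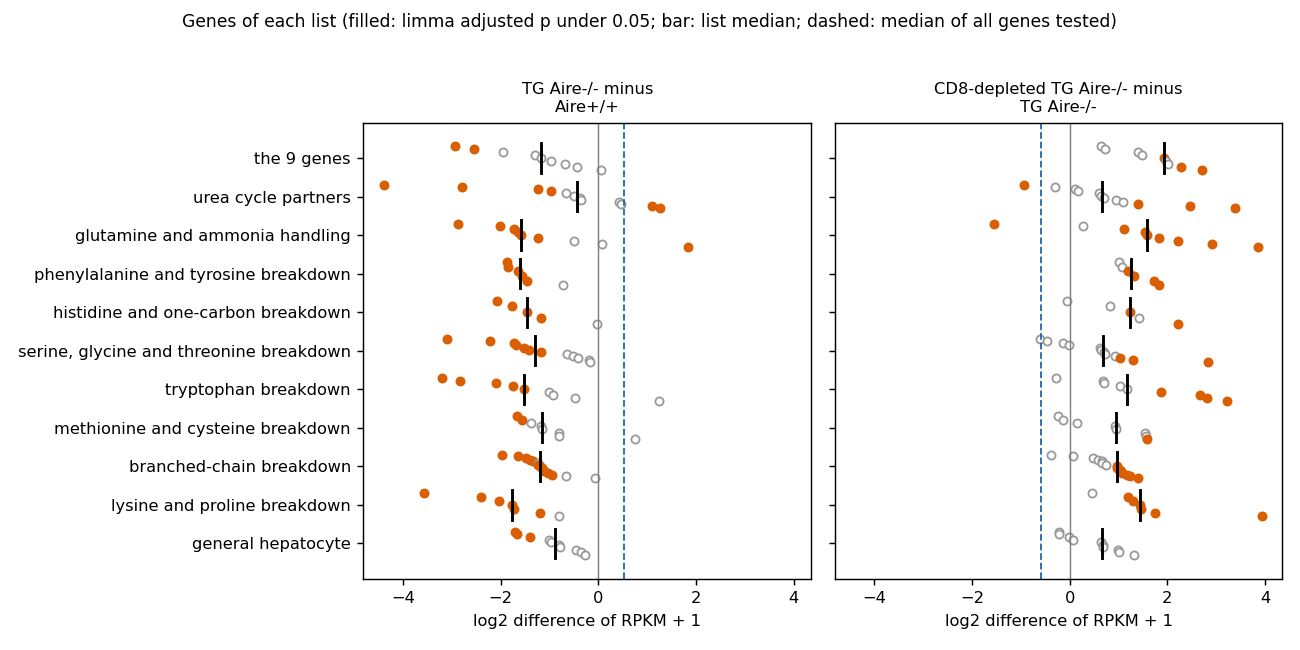
Log2 differences of each gene in the lists of amino acid metabolism and in the general hepatocyte list, for TG Aire-/- minus Aire+/+ livers and CD8-depleted TG Aire-/- minus TG Aire-/- livers. Filled points passed the limma threshold, short bars mark list medians and the dashed line marks the median of all genes tested (0.53 and -0.58). Most list medians lie left of 0 in the first comparison and right of 0 in the second, for values as deposited. Scaled to hepatocyte genes, the median in the first was 0.12 over the 83 and 1.64 over all genes tested.

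The 12 partners of the urea cycle were mixed, with 4 falls and 2 rises in TG Aire-/- relative to Aire+/+ livers. Over all genes tested, 5.5% were called lower and 31.8% higher in that comparison. Both counts of the partners were smaller without TG Aire-/- replicate 2, Aire+/+ replicate 1 or Aire+/+ replicate 2. In those fits fewer of all genes tested were called too. Car5a, the mitochondrial carbonic anhydrase that supplies bicarbonate to Cps1, had 17.5 and 17.2 RPKM in CD8-depleted livers, 1.72 and 0.117 RPKM in TG Aire-/- livers, and 35.8 and 35.4 RPKM in Aire+/+ livers. The groups did not overlap, and its fall of 4.39 (limma adjusted p = 0.00184) exceeded that of any of the 9 genes, as did its rise of 3.39 in CD8-depleted livers (limma adjusted p = 0.00219). Nags, which makes the activator that Cps1 requires, fell by 0.98 in TG Aire-/- livers (limma adjusted p = 0.0412). Slc25a15, the mitochondrial ornithine carrier that feeds Otc, fell by 1.23 (limma adjusted p = 0.0469) and rose by 1.40 in CD8-depleted livers (limma adjusted p = 0.0303). The alanine aminotransferases moved apart: Gpt fell by 2.80 (limma adjusted p = 0.00562), and Gpt2 rose by 1.27 (limma adjusted p = 0.0347). The other rise counted was that of Arg2, the mitochondrial arginase found outside the urea cycle. It reached 1 RPKM only in the TG Aire-/- pair and so entered the test only through the group where it was high, and its call there and its fall in CD8-depleted livers support nothing further. With 1 of the TG Aire-/- libraries left out it was not tested. Its level was small beside Arg1, at 0.122 and 0.468 RPKM in CD8-depleted livers, 1.03 and 1.99 RPKM in TG Aire-/- livers, and 0.245 and 0.0595 RPKM in Aire+/+ livers. Sdsl, a relative of Sds, was not called, at 8.27 and 5.54, 7.45 and 1.97, and 6.57 and 3.32 RPKM in the same groups.

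Over all genes tested, 5.5% were called lower and 31.8% higher in TG Aire-/- relative to Aire+/+ livers. In CD8-depleted relative to TG Aire-/- livers 4.49% were called higher and 33.5% lower. Of 9 genes that handle glutamine and ammonia, 6 fell and 1 rose in the first comparison, and 7 rose and 1 fell in the second. Fewer of the 9 fell in TG Aire-/- livers without TG Aire-/- replicate 2, Aire+/+ replicate 1 or Aire+/+ replicate 2. Fewer rose in CD8-depleted livers without TG Aire-/- replicate 2. In those fits fewer of all genes tested were called too. Both zones were represented. Gls2, the liver glutaminase that supplies ammonia near the portal vein, fell by 1.65 (limma adjusted p = 0.0498) and rose by 1.82 (limma adjusted p = 0.0355). On the central side, Glul, glutamine synthetase, had 164 and 253 RPKM in CD8-depleted livers, 85.7 and 104 RPKM in TG Aire-/- livers, and 237 and 208 RPKM in Aire+/+ livers. Glul was lowest in TG Aire-/- livers, falling by 1.23 (limma adjusted p = 0.0262) and rising by 1.10 in CD8-depleted livers (limma adjusted p = 0.0360). Relative to the median of the general hepatocyte genes, Glul differed by 0.17 and 0.20 in these comparisons, with overlapping groups. Oat, ornithine aminotransferase, and Slc1a2, a glutamate transporter, both of the central zone, fell by 1.72 and 2.87 and rose by 2.91 and 3.85, all past the threshold.

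Most genes of the 7 other breakdown lists shared the direction of the Hpd and Hal estimates, for values as deposited. Hal itself was not called in TG Aire-/- relative to Aire+/+ livers. Over all genes tested, 5.5% were called lower and 31.8% higher in TG Aire-/- relative to Aire+/+ livers. In CD8-depleted relative to TG Aire-/- livers 4.49% were called higher and 33.5% lower. In TG Aire-/- relative to Aire+/+ livers 5 of 6 genes of phenylalanine and tyrosine breakdown fell, among them Gstz1 and Hgd, which act after Hpd, by 1.87 and 1.86. Of 5 genes of histidine and one-carbon breakdown 4 fell, with Uroc1 and Amdhd1, which follow Hal, at -1.46 and -1.77, while Ftcd stood at -0.03. Of 12 genes of serine, glycine and threonine breakdown 7 fell, with Gnmt, glycine N-methyltransferase, at -3.10. Of 9 tryptophan genes 5 fell, with Haao at -3.20 and Tdo2, which opens the pathway, at -2.09. In branched-chain breakdown 12 of 15 fell, with Ivd at -1.96, and in lysine and proline breakdown 6 of 7, with Prodh, proline dehydrogenase, at -3.56. Methionine and cysteine breakdown had 2 falls among 8 genes, Mat1a at -1.66 and Cbs at -1.56. These counts rested on single libraries. All 7 were lower without TG Aire-/- replicate 2, without Aire+/+ replicate 1 and without Aire+/+ replicate 2. In those fits fewer of all genes tested were called lower too. In CD8-depleted relative to TG Aire-/- livers the counts of rises in these 7 lists, in the order given, were 4 of 6, 2 of 5, 3 of 12, 4 of 9, 8 of 15, 6 of 7 and 1 of 8, and none fell. Most of those counts were lower without CD8-depleted replicate 1, without TG Aire-/- replicate 2 and without each Aire+/+ library. There, fewer of all genes tested were called higher too. The list medians in the same order were 1.26, 1.23, 0.67, 1.18, 0.96, 1.44 and 0.94. Without CD8-depleted replicate 1 they were 1.20, 0.83, 0.60, 1.58, 0.78, 1.41 and 0.67. Prodh rose by 3.94, Tdo2 by 3.22, Gnmt by 2.83 and Haao by 2.81.

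Among 15 liver receptors and transcription factors, 4 fell and 1 rose in TG Aire-/- relative to Aire+/+ livers, where 5.5% of all genes tested were called lower and 31.8% higher. These calls were lost without TG Aire-/- replicate 2, without Aire+/+ replicate 1 or without Aire+/+ replicate 2, where fewer of all genes were called too. More of the 15 fell with 1 CD8-depleted library left out, whichever it was, where more of all genes were called lower too. Gcgr, the glucagon receptor, fell by 1.99 (limma adjusted p = 0.0131) and rose by 1.80 in CD8-depleted livers (limma adjusted p = 0.0181). Cebpa, a C/EBP factor of mature hepatocytes, fell by 1.73 (limma adjusted p = 0.00958), and Ppara, the fasting-response receptor, by 1.22 (limma adjusted p = 0.0258). Onecut1 (HNF6) rose by 1.68 (limma adjusted p = 0.0347). Cebpb fell by 1.04 in CD8-depleted relative to TG Aire-/- livers (limma adjusted p = 0.0471).

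Over the 6 libraries, Ass1 and Asl lay nearest to the mean profile of the 9 genes, at root mean square distances of 0.180 and 0.204 on the log2 scale after centring. Arg1, Otc and Hpd lay farthest, at 0.741, 0.715 and 0.690. Outside the 9, Cth (cystathionine gamma-lyase) was nearest at 0.125, and Gm5424 at 0.178, Gls2 at 0.231 and Klf15, a regulator of amino acid breakdown in fasting, at 0.249 were among the 5 nearest. Cth had 242 and 91.0 RPKM in CD8-depleted livers, 86.8 and 28.6 RPKM in TG Aire-/- livers, and 135 and 126 RPKM in Aire+/+ livers. Its replicate 1 was high in both altered groups, but Cth was picked for its closeness to that profile, so this is no separate observation. Gls2 was called in both comparisons with TG Aire-/- livers, and Cth and Klf15 were not.

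The sequences before the start sites of Hal, Otc and Hpd, the 3 genes called in a comparison, are shown for context (RefSeq, GRCm38.p6, 250 bases up to the start site, 5′ to 3′ on the gene's strand). They stood at chr10:93488518-93488767 (plus strand), chrX:10252055-10252304 (plus strand) and chr5:123182724-123182973 (minus strand). Capitals mark matches to the motifs searched.
Hal: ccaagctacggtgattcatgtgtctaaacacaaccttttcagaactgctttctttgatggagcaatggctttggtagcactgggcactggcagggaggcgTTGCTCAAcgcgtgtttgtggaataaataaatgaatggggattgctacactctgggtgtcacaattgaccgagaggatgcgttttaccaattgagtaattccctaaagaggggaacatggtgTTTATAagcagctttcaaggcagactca
Otc: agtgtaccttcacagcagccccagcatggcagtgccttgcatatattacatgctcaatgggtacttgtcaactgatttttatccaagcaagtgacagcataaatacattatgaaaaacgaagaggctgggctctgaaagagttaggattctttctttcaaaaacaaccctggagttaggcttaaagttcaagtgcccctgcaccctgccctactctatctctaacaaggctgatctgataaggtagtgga
Hpd: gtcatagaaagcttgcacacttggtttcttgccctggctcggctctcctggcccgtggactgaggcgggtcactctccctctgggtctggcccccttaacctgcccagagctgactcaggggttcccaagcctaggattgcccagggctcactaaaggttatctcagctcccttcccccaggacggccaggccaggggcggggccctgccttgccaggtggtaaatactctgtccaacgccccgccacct
The 4 motifs were searched on both strands in windows from 250 bases before to 50 after the start, for the 5 of 9 genes matched in the RefSeq table (Ass1, Hpd, Tat, Hal and Otc). They were a TATA box (TATAAA, in 13.6% of 32851 promoters), a C/EBP-like site (TTGCNNAA, 10.8%), a cAMP response element (TGACGTCA, 1.79%) and a glucocorticoid response half-site (TGTTCT, 19.0%). Hal held a TATA box on the opposite strand, its first base at position -28, and a C/EBP-like match with its first base at -150, counting back from -1 at the base before the start, and these did not overlap. The other 4 windows held none of these letters.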

How the data were processed

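RNA from 6 whole livers, 2 in each of 3 groups, is used here from a series of 22 samples. Groups and replicate numbers come from the titles. Values were read for 18 samples, and 4 liver samples without a batch number were not analysed here. The authors deposited RPKM values, already scaled to gene length and library. Per the submitters' processing notes, STAR 2.5.2b and the mm10 build were used, and neither annotation nor counting tool is stated. Depth was inferred from 6084 single-transcript genes as the best fit to their low values. At that depth 40.5% to 46.7% of low values were whole reads within 0.1 read. Chance gives 20% at a depth fixed beforehand. Reads were not recovered in this way, and no count test was run. A floor of 3 reads on 2000 bases was 0.0657 to 0.0747 RPKM, for counting error only.

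Group differences came from limma 3.58.1 under R 4.3.3 (eBayes with trend, two-sided) on log2(RPKM + 1), which understates changes of low genes. Genes with 1 RPKM in at least 2 libraries entered 1 fit of all 6 libraries without covariates, with Benjamini-Hochberg adjustment over the 12231 genes and a threshold of 0.05. The procedure was tested on simulated data. The 9 genes and all lists were chosen with earlier results of these data known. Named genes were the 9, up to 4 per list past the threshold in TG Aire-/- minus Aire+/+ livers and up to 2 per comparison with CD8-depleted livers, by size, together with Arg2, Sdsl, Glul, Cd8a and the 5 nearest profiles. Single-gene results of some genes that this rule names are not reported here, and list counts and medians include them. Nags, Gls2, Ftcd, Got1, G6pc, Pck1, Nos2, Odc1, Chil3, Mrc1, Retnla, Mgl2, Trf and Alb were added after their values were seen. Near-identical transcripts were sought with BLAST 2.17.0 in GENCODE (GRCm38). Alternatives were a pseudocount of 0.1, no filter, 3 scalings, no trend, the compared groups alone, a replicate block, sample weights, sex as a covariate and each library left out, and a crossed block was added after seeing the data. A group left with 1 library was assumed to vary like the others.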

Additional observations from a re-analysis of the deposited data

Results flagged for a closer look

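In tables outside the liver comparisons, Ass1 and Asl reached 1 RPKM in every library, which no other of the 9 genes did. In CD8+ T cells sorted from liver, with 1 library in each of 3 groups, Ass1 had 8.14 to 21.1 RPKM and Asl 5.66 to 10.6 RPKM. In 9 thymus libraries Ass1 had 3.73 to 18.2 RPKM and Asl 9.46 to 18.8 RPKM. Arg1 had 0.0922 to 0.574 RPKM in CD8+ T cells and 0.370 to 8.77 RPKM in thymus, with 7 of 9 thymus libraries at 1 RPKM or more, so that it overlapped the range of Ass1 there. Hal had 0.963 to 4.17 RPKM in thymus. Cps1 reached at most 0.0165 RPKM in CD8+ T cells and 0.118 RPKM in thymus. No control library without these genes is at hand, the tables were normalized separately from liver, and Ass1 shares its reads with Gm5424 there too.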

How the results depend on the processing

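Of the 9 genes, 2 were called in TG Aire-/- minus Aire+/+ livers, 3 in CD8-depleted minus TG Aire-/- livers and 0 in CD8-depleted minus Aire+/+ livers. Leaving out a library gave 1 to 3, 0 to 7 and 0 to 0 calls. For CD8-depleted minus TG Aire-/- livers the count was 1 without the filter on low values, 5 with the replicate block and 1 with sex as a covariate. The cause was not tested. The labels do not say that the replicate numbers pair the libraries. Deviations of same-numbered libraries correlated at -0.145, -0.0925 and 0.292 over genes, which cannot decide it with 2 libraries a group. The replicate block gave 3 and 0 calls in the other comparisons, and crossing the numbers of CD8-depleted livers gave 2, 3 and 0 calls. For TG Aire-/- minus Aire+/+ livers the sign reversed for Arg1 with median-ratio factors (-0.45) and without the 20 most abundant genes in the sum (-0.094), and for Cps1 (0.71), Ass1 (0.22), Asl (0.083), Tat (0.95) and Sds (0.38) with scaling to hepatocyte genes. Over libraries left out, Tat ran there from -1.003 to 0.13 and Sds from -2.20 to 0.26, above 0 without TG Aire-/- replicate 2. For CD8-depleted minus TG Aire-/- livers it reversed for Cps1 (-0.17) and Arg1 (-0.26) with that scaling, and Cps1 ran from -0.25, without CD8-depleted replicate 1, to 1.71. For CD8-depleted minus Aire+/+ livers it reversed for Ass1 (-0.20) with sex as a covariate. Over libraries left out, Cps1 ran there from -0.93 to 1.03, Ass1 from -0.40 to 0.85, Asl from -0.23 to 1.58, Hal from -0.57 to 2.08 and Sds from -0.27 to 2.36, each lowest without CD8-depleted replicate 1, and Cps1 was -0.086 without Aire+/+ replicate 1.

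Over all genes, TG Aire-/- minus Aire+/+ livers gave 3892 higher and 673 lower calls, 2248 and 1199 with median-ratio factors and 9133 and 139 with scaling to hepatocyte genes. They fell to 1038 and 232 without TG Aire-/- replicate 2, 1367 and 202 without Aire+/+ replicate 1, and 1452 and 199 without Aire+/+ replicate 2. CD8-depleted minus TG Aire-/- livers gave 549 and 4097, and 932 and 2110 with median-ratio factors, and as few as 186 and 1108 without TG Aire-/- replicate 2. CD8-depleted minus Aire+/+ livers gave 27 and 40, and 101 and 32 with hepatocyte scaling. The median difference of all genes in TG Aire-/- minus Aire+/+ livers moved to 0.13 with median-ratio factors and to 0.42 without the 20 most abundant genes. Among the 83 genes of the 9 lists, 54 calls in that comparison became 36 without the filter and 19 with hepatocyte scaling. The 40 calls in CD8-depleted minus TG Aire-/- livers became 17 with hepatocyte scaling, 18 with sex as a covariate and 25 with only the compared groups. With 2 libraries a group, only large differences could pass.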
